A study of Mus musculus with 14 samples.

Results

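Prex2, Odf2 and Bche are 3 genes whose spleen transcripts stood higher in the mouse strain AcB55 than in the strain AcB61, and this account follows their log ratios over every array. Each is measured by 1 probe that carries its symbol alone in the platform annotation, so the members are 3 of 15247 features listed, of which 14612 had a value. They were chosen by the measured ratios themselves, as genes with large differences between the strains and AcB55 the higher. Their values in both strains are thus a description, and no test of their strain differences is given. Spleen RNA of AcB55 mice (6 arrays) and of AcB61 mice (8 arrays) was hybridised on cDNA arrays with 2 channels, with spleen RNA of A/J mice as the second channel throughout. Both strains are recombinant congenic lines, inbred from crosses of A/J with C57BL/6 so that most of the genome is A/J, and the series is titled for resistance to malaria. The infection status, age and sex of the mice, the pooling of animals and the allele each strain carries at the members are not given in the sources used here, and every array has A/J in common. The titles of 2 AcB55 arrays, replicates 3 and 4 by order of deposit, end in the letter b, whose meaning is not given.

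The members belong to different pathways. Prex2 encodes an exchange factor that loads the GTPase Rac with GTP and is switched on by the lipid PIP3 and by G protein beta-gamma subunits. Odf2 encodes outer dense fibre protein 2, a fibre protein of the sperm tail that also sits in the appendages of the mother centriole and is needed for primary cilia. Bche encodes butyrylcholinesterase, a secreted esterase that the liver releases into plasma and that splits choline esters, acetylcholine among them.

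The bases before the transcript start are shown for the members that have such a window, to put the sequence beside the ratios that follow. RefSeq (GRCm38.p6) held windows for Odf2 and Bche, 4 for Odf2 with nearby starts and 1 for Bche, and the most upstream Odf2 window is printed. Each line gives the 250 bases before the start, 5′ to 3′ on the strand of the gene, with matches to the motifs searched in capitals. The Odf2 window is chr2:29889470-29889719 on the plus strand and the Bche window is chr3:73708416-73708665 on the minus strand.
Odf2: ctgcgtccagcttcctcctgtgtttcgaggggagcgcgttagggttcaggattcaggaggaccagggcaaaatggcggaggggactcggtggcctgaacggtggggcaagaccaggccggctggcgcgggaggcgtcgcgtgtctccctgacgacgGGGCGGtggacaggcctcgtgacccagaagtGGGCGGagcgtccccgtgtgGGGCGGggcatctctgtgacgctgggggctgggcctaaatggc
Bche: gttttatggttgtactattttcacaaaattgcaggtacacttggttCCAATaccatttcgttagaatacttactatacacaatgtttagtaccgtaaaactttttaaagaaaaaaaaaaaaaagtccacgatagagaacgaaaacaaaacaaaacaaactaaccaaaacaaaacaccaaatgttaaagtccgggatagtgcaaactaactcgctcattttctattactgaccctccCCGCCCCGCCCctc
The Odf2 window was 68.4% G and C and the Bche window 35.6%, against a median of 52.4% over 32851 windows of RefSeq starts. Both strands were searched for 6 short motifs. The GC box core GGGCGG had 3 matches in the Odf2 window and 2 matches, which overlap each other, in the Bche window, and 32.7% of all windows hold it. The other 3 Odf2 windows, which overlap the printed one or each other, held 3, 0 and 1. The CCAAT box had 1 match in the Bche window and 0 in the Odf2 window shown, but 1 in each of 2 other Odf2 windows, and 33.8% of all windows hold it. The GATA motifs, written AGATAA (9.99% of all windows) or TGATAA (7.94%), the TATA box as TATAAA (12.4%), and the E-box as CAGCTG (13.0%) had no match in these letters.

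Each value below is a log2 ratio, the strain over A/J, so 0 means equal signal from the strain and from A/J. The log base was taken as 2 and the direction as the labels order the channels, strain first and A/J second, since the dyes are not given for each array. Signal intensities were not used here, so a ratio gives no level, and neither the abundance of these transcripts nor the markers of spleen can be read as levels. In whole spleen, fewer cells of a type and less RNA per cell cannot be told apart. The number of arrays limits the precision. SDs and p-values rest on differences from array to array, which nothing ties to separate mice. A/J was never set against A/J, and which A/J mice served each array is not given. How far variation among A/J mice is in the SDs and p-values cannot be told.

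Prex2 read 0.59, 0.82, 1.88, 1.92 and 1.02 on AcB55 replicates 1 to 5 and had no value on replicate 6. On AcB61 replicates 1 to 8 it had a lowest value of -0.38, a median of 0.045 and a highest of 0.45. The AcB55 arrays all lay above the AcB61 arrays, and the 2 AcB55 arrays with titles ending in b lay far above the other 3. The means were 1.25 ± 0.62 (SD, n = 5) in AcB55 and -0.0090 ± 0.27 (SD, n = 8) in AcB61, so the AcB55 signal was 2.37 times that of A/J and the AcB61 signal was close to it. The gap between the lowest AcB55 array and the highest AcB61 array was 0.14, the narrowest of the 3 genes.

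Odf2 had its lowest value in AcB55 at 0.45, its median at 0.78 and its highest at 1.75, on 6 arrays. In AcB61 the lowest value was -0.38, the median -0.11 and the highest -0.044. It was above 0 on every AcB55 array and below 0 on every AcB61 array, the single member with opposite signs throughout. The means were 0.93 ± 0.50 (SD, n = 6) in AcB55 and -0.17 ± 0.13 (SD, n = 8) in AcB61, and the gap between the strains, 0.50, was the widest of the 3 genes. Within AcB61 replicates 2 and 8 were lowest, at -0.38 and -0.36, and the other 6 arrays read -0.14 to -0.044.

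Bche had its lowest value in AcB55 at 0.38, its median at 0.56 and its highest at 1.50, on 6 arrays. In AcB61 the lowest value was -0.35, the median -0.13 and the highest 0.15. The strains did not overlap, with a gap of 0.23, while the AcB61 arrays lay on both sides of 0. The means were 0.74 ± 0.46 (SD, n = 6) in AcB55 and -0.096 ± 0.16 (SD, n = 8) in AcB61. AcB55 replicates 1, 2 and 5 lay close together, at 0.38, 0.41 and 0.38, and replicate 6 read 0.71.

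**Figure D1:**
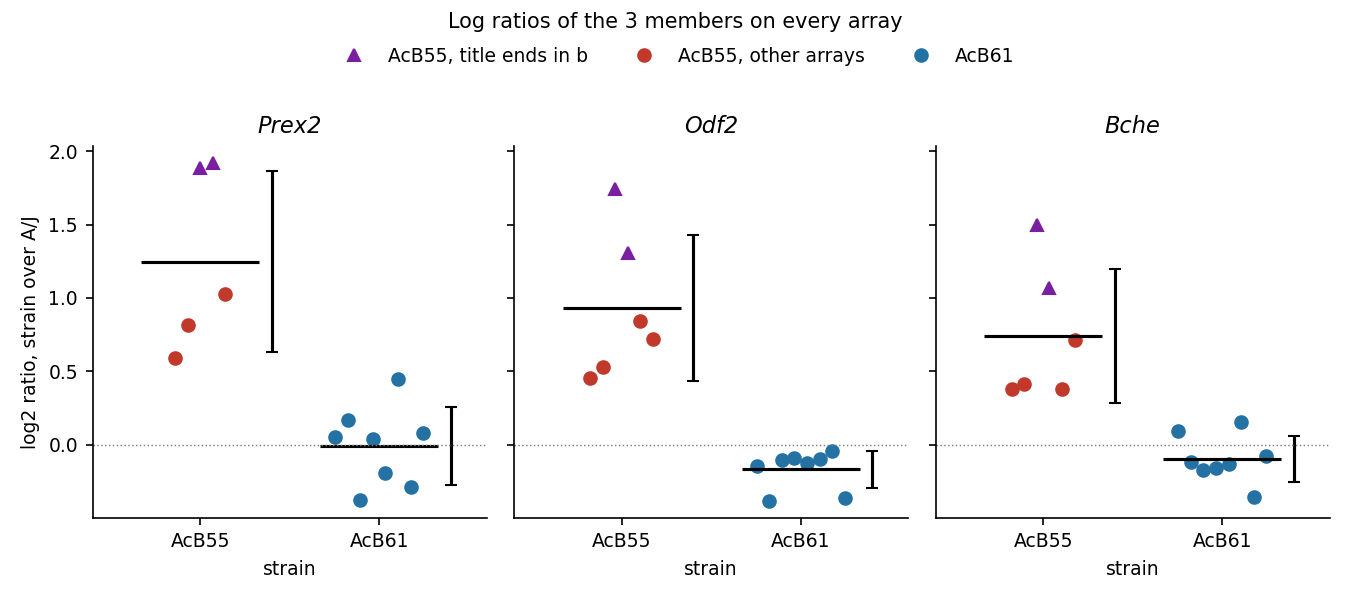
Log2 ratio of strain to A/J (vertical axis) for Prex2, Odf2 and Bche on each array, with AcB55 left of AcB61, points for arrays, horizontal lines for means and bars for the SD. All AcB55 points lie above all AcB61 points, and the triangles, the 2 AcB55 arrays with titles ending in b, are the highest points of each gene.

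As a difference of the strain means, AcB55 minus AcB61 was 1.26 for Prex2, 1.10 for Odf2 and 0.84 for Bche, or 2.39-fold, 2.14-fold and 1.79-fold. By this difference they ranked 1, 3 and 10 among the 6286 named genes that could be tested. The choice of members used these values. Just above Bche in this order stood Clu (0.88), which encodes the extracellular chaperone clusterin, and just below it Igtp (0.81), a GTPase induced by interferon. In both of those genes the AcB61 mean was well below 0 (-0.89 for Clu and -0.48 for Igtp), whereas for the 3 members AcB61 stood nearer to A/J than AcB55 did. The members were not alone in this. Irak1 (0.93 in AcB55 and -0.029 in AcB61), Mrps25 (0.98 and 0.059) and Bcl2l1 (0.83 and 0.074), also high in this order, showed it too. H2-K1 (0.19 and -0.51) went as Clu and Igtp did. The pattern of every AcB55 array above every AcB61 array was shown by 3 of 3 members and by 1.56% of all tested features, and it was part of the choice. Xist, which ranked 2 with a mean of 0.019 in AcB55 and -1.20 in AcB61, also differed between the strains, and with no sex in the labels, sex and strain cannot be told apart.

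The AcB55 values were highest on the arrays marked b. On replicates 3 and 4, whose titles end in b, Prex2 read 1.88 and 1.92, Odf2 1.75 and 1.31, and Bche 1.50 and 1.07. On the other AcB55 arrays Prex2 averaged 0.81 ± 0.22 (SD, n = 3), Odf2 0.64 ± 0.18 (SD, n = 4) and Bche 0.47 ± 0.16 (SD, n = 4). For each gene both arrays marked b lay above all other AcB55 arrays, which 6.78% of the 12840 features with enough values also showed. The gap between the sets was 0.86 for Prex2, 0.47 for Odf2 and 0.35 for Bche, and for Bche it was smaller than the distance between its 2 arrays marked b. The difference between the arrays marked b and the others was 1.09 for Prex2, 0.89 for Odf2 and 0.81 for Bche. Among 6215 named genes these differences ranked 3, 4 and 7. Since the AcB55 mean that chose the members holds these arrays, the ranks are a description.

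The arrays marked b held the highest AcB55 values of each gene, so leaving them out made the differences smaller and could not make the strains overlap. The differences AcB55 minus AcB61 were then 0.82 for Prex2, 0.80 for Odf2 and 0.57 for Bche, or 1.76-fold, 1.75-fold and 1.48-fold. The gaps between the lowest AcB55 and the highest AcB61 array stayed at 0.14, 0.50 and 0.23, since the lowest AcB55 array of each gene was not marked b. By this smaller difference the genes ranked 6, 11 and 31 among the 6286 named genes. The choice of members used these arrays too, so these ranks are also a description. Over all features the SDs of the arrays marked b, 0.24 and 0.26, were the lowest of AcB55, whose other arrays had 0.27 to 0.33. They correlated with each other at r = 0.62 and with the other AcB55 arrays at a median of 0.55 (0.40 to 0.68). Pairs of the other AcB55 arrays had a median of 0.47 (0.37 to 0.75). With the AcB61 arrays the median was 0.18 (0.12 to 0.26) for the arrays marked b and 0.23 (-0.019 to 0.52) for the other AcB55 arrays.

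**Figure D2:**
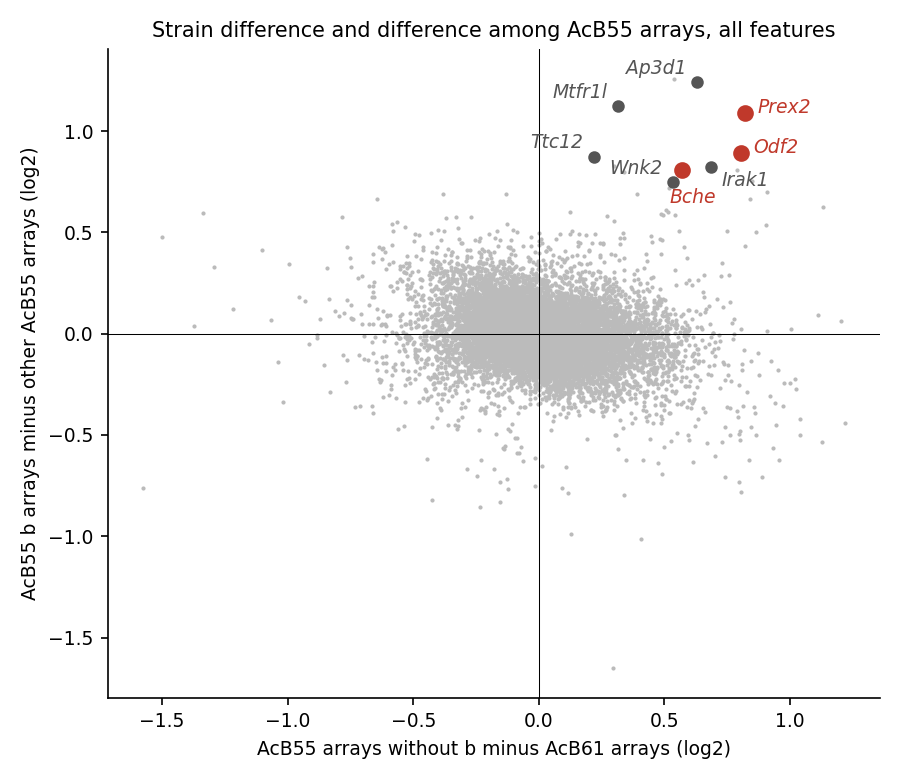
For every feature, the mean of the AcB55 arrays without b minus the AcB61 mean (horizontal axis, log2) against the mean of the AcB55 arrays marked b minus the other AcB55 arrays (vertical axis, log2). Prex2, Odf2 and Bche (red) lie far right and far up, at 0.82 and 1.09, 0.80 and 0.89, and 0.57 and 0.81, with Irak1 and Wnk2 close to Bche, and with Ap3d1, Mtfr1l and Ttc12 above or to the left of them.

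Markers of cell types were read on the same arrays as mean log2 ratios over a list. For red cell precursors (7 of 12 markers measured) the arrays marked b gave 0.47 and 0.74, the other AcB55 arrays 0.50 to 0.77 and the AcB61 arrays 0.66 to 0.81. For dividing cells (16 of 18) the arrays marked b gave 0.66 and 0.76, the other AcB55 arrays 0.60 to 0.96 and AcB61 0.45 to 0.85. In the fit described below, 2 of 16 dividing cell markers were higher in AcB55 than in AcB61, Mki67 by 1.01 (1.83 in AcB55 and 0.82 in AcB61, adjusted p = 4.33e-05) and Mcm3 by 0.41 (adjusted p = 0.0159). That is 12.5% of the list, near the 12.3% of all features that differed between the strains (6.98% higher and 5.29% lower in AcB55). The median difference over the list was 0.068. Of the 7 red cell markers 2 were lower in AcB55 (28.6% of the list), Alas2 (difference -0.51, adjusted p = 0.0193) and Ermap (-0.25, adjusted p = 0.0381). The B cell and plasma cell list (Blnk and Xbp1, 2 of 8) was at -1.01 and -0.72 on the arrays marked b, -1.32 to -0.85 on the other AcB55 arrays and -0.96 to -0.23 in AcB61, and both genes were lower in AcB55 than in AcB61 by the fit described below. The granulocyte list (4 of 9) was at 0.060 and 0.15 on the arrays marked b, -0.045 to 1.31 on the other AcB55 arrays and 0.27 to 0.75 in AcB61, and the macrophage list (4 of 9) at -0.51 and -0.23, -0.53 to -0.15 and -0.36 to -0.086 on the same sets. Satb1, the one T and NK cell marker measured, was at -0.084 and 0.049 on the arrays marked b, above the -0.31 to -0.17 of the other AcB55 arrays, and at -0.17 to 0.22 in AcB61. The vessel, stroma and fat list (6 of 11) was at -0.29 and -0.11 on the arrays marked b, above the -0.53 to -0.30 of the other AcB55 arrays, and at -0.31 to 0.022 in AcB61, and Col3a1 of this list was lower in AcB55 than in AcB61 (-0.57, adjusted p = 3.1e-05). The neuron and glia list (4 of 16) was at -0.024 and 0.021 on the arrays marked b, below the 0.057 to 0.14 of the other AcB55 arrays, and at 0.018 to 0.37 in AcB61, and its Tubb3 was lower in AcB55 (-0.47, adjusted p = 0.013). Liver, the main source of Bche in the body, was covered by Fga alone of 18 markers, at -0.16 and -0.12 on the arrays marked b, -0.12 to 0.23 on the other AcB55 arrays and -0.13 to 0.18 in AcB61. Cpa1, the one pancreas marker measured, was at -2.05 and -1.19 on the arrays marked b, -3.58 to 2.37 on the other AcB55 arrays and -0.89 to 0.48 in AcB61. The part of any cell type in the members' values was not tested beyond these values.

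The spread within strains was compared between members in the 4 pairs with at least 6 arrays. The choice of members used the values of both strains, so the coefficients are a description and no p-value is given. Across the 8 AcB61 arrays Prex2 and Bche had Pearson's r = 0.77 and Spearman's rho = 0.86. Both genes had their highest AcB61 value on replicate 6, and r was 0.65 without replicates 3 and 6, the arrays farthest from the Prex2 median. For Odf2 in AcB61 the coefficients were negative: r was -0.34 with Prex2 and -0.13 with Bche, with rho of -0.45 and -0.50. Without the 2 arrays farthest from the median these r were -0.74 with Prex2 (without replicates 3 and 6) and -0.66 with Bche (without replicates 2 and 8), so their size depends on those arrays. Across the 6 AcB55 arrays Odf2 and Bche gave r = 0.95 and rho = 0.66, a description only, since the AcB55 mean that chose the members holds the arrays marked b. That relation rests on the arrays marked b, since r was 0.29 over the other 4. Prex2 had values on 5 AcB55 arrays, too few for this comparison.

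The genes most like each member were taken by Pearson's r over all arrays that measured the member, as a description, since the arrays share the A/J channel and fall into the 2 strains. Only genes with a value on every array that measured the member were compared, so Prex2, which lacks 1 array, was not compared in the orders for Odf2 and Bche. For Prex2, over 13 arrays and 5836 other genes, the highest r was that of Bche itself (0.96), followed by Paip2 (0.96), a translational repressor, Ndufaf3 (0.95), an assembly factor of respiratory complex I, Mab21l3 (0.94) and the amino acid transporter Slc7a6 (0.93). For Odf2, over 14 arrays and 5796 other genes, Irak1 (0.97), a kinase of interleukin-1 and Toll-like receptor signalling, came first, then Bche (0.94), Paip2 (0.93), the kinase Wnk2 (0.93) and Pdlim7 (0.92), a LIM domain protein of the actin cytoskeleton. For Bche, over the same arrays, the order was Tram1 (0.96), a protein of the endoplasmic reticulum translocon, Odf2 (0.94), Paip2 (0.94), Irak1 (0.94) and Ndufaf3 (0.91). Over the 13 arrays that measured Prex2, its r was 0.96 with Bche and 0.93 with Odf2. Paip2 stood in all 3 lists, with means of 0.80 on the arrays marked b, 0.24 on the other AcB55 arrays and -0.057 in AcB61. Irak1 averaged 1.48, 0.66 and -0.029 on the same 3 sets of arrays. After the mean of each strain was subtracted, the named genes correlated with their member at 0.68 to 0.90. They were picked for a high r on these same arrays, so this range is no separate evidence. Of the 5 genes, 0 stayed among the top 5 for Prex2 after that subtraction, 1 for Odf2 and 2 for Bche. Without both arrays marked b, 2 stayed for Prex2, 2 for Odf2 and 1 for Bche.

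**Figure D3:**
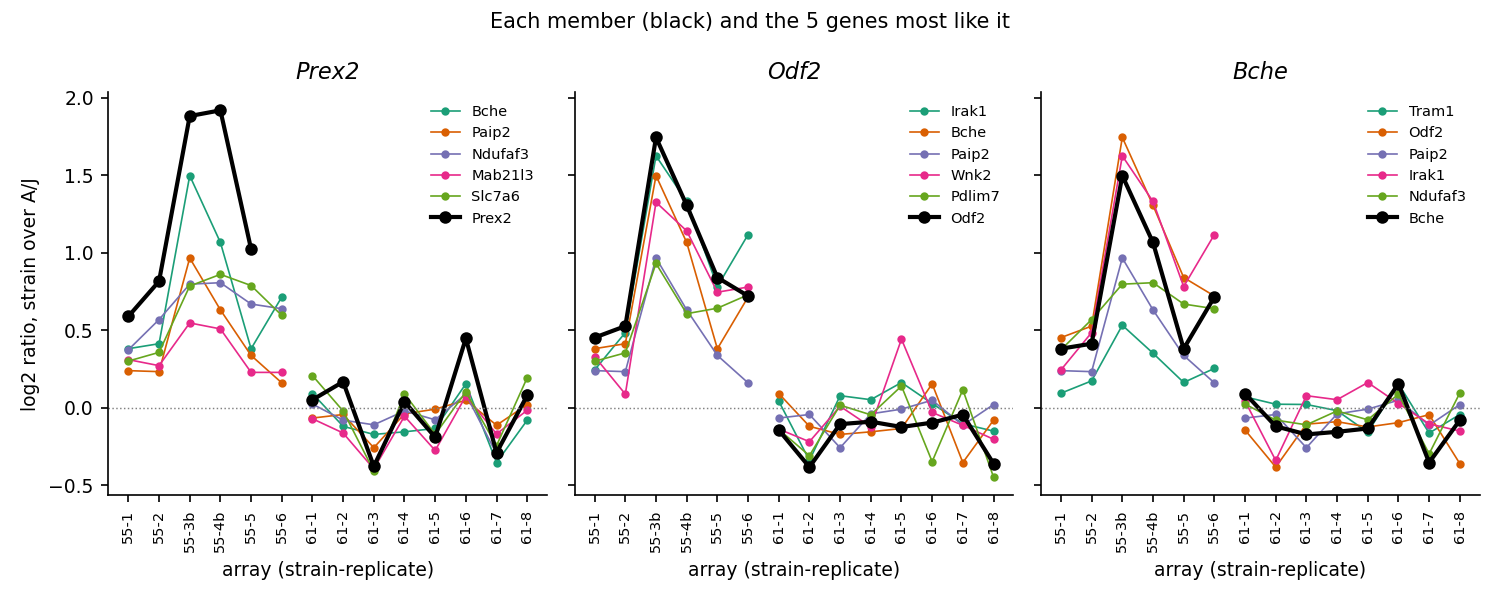
Log2 ratio of strain to A/J (vertical axis) on each array (horizontal axis, AcB55 replicates 1 to 6 and then AcB61 replicates 1 to 8, b marking the 2 titles) for each member in black and the 5 genes most like it in colour, with lines that only join the points of a gene within a strain. The highest points of Prex2, Odf2 and Bche are on AcB55 replicates 3 and 4, and in AcB61 the members stay between -0.38 and 0.45.

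Genes that work with each member were set beside it, with a call at an adjusted p under 0.05 in limma over 13045 features. Of 50 listed genes of Rac exchange and signalling 11 were measured, and Prex1 and Vav1 were not among them. Prex2 was high in AcB55, where none of those measured was called higher. Of the 11, 0 rose and 4 fell by this call in AcB55, where 9.77% of all features rose and 10.9% fell. In AcB61 0 rose and 5 fell, where 10.5% rose and 13.3% fell. At an unadjusted p under 0.05, 1 rose in AcB55 and 0 in AcB61. The list medians were -0.093 in AcB55 and -0.11 in AcB61, against -0.0019 and -0.00067 over all features. Those that fell in AcB55 were the GTPases Rac2 (-0.71 ± 0.16, n = 6) and Rac1 (-0.34 ± 0.10, n = 6), the NADPH oxidase subunit Cyba (-0.67 ± 0.18, n = 6), and the Rac effector kinase Pak2 (-0.37 ± 0.20, n = 6), with adjusted p from 2.24e-06 to 0.00026. In AcB61, where the count became 3 without replicate 6, 7 or 8, the same 4 genes and the scaffold Iqgap1 (-0.22 ± 0.30, n = 8, adjusted p = 0.0385) fell, with means of -0.58 for Rac2, -0.52 for Cyba, -0.17 for Rac1 and -0.16 for Pak2. The AcB61 calls of Pak2 and Iqgap1 were each lost without any of 5 or more single AcB61 arrays (adjusted p up to 0.0853 and 0.122). The exchange factors Vav2 and Tiam2 were named after their values were seen, because they act on Rac as Prex2 does. Vav2 read 0.15 ± 0.21 in AcB55 and -0.050 ± 0.26 in AcB61, and Tiam2 0.15 ± 0.15 and 0.0070 ± 0.17. On the arrays marked b Vav2 averaged 0.37 and Tiam2 0.10. Neither gene passed in either strain. Between the strains 0 of these 11 genes passed in limma, against 12.3% of all features (6.98% higher and 5.29% lower in AcB55), and 2 were lower at an unadjusted p under 0.05. Without AcB55 replicate 3, or without both arrays marked b, 1 passed, Pak2, lower in AcB55 by -0.29 in either case.

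Around Odf2, 48 of 85 listed centrosome, centriole and cilium genes were measured. Of these 48, 7 rose and 5 fell in AcB55, and 6 rose and 4 fell in AcB61, shares of 25.0% and 20.8% beside the 20.7% and 23.8% of all features. The 12 calls in AcB55 became 7 without AcB55 replicate 6. The list medians, 0.013 and 0.023, lay near 0. The mitotic genes Plk1 (0.69 ± 0.34 in AcB55 and 0.68 ± 0.39 in AcB61), Tacc3 (0.61 ± 0.20 and 0.41 ± 0.20) and Aurka (0.47 ± 0.28 and 0.40 ± 0.28) rose in both strains, unlike Odf2. Cep97 (0.39 ± 0.38 in AcB55 and 0.86 ± 0.34 in AcB61), a centriole protein, rose in both, but its AcB55 call was lost without replicate 1, 2 or 5 (adjusted p = 0.0728 to 0.141). Tubgcp2 (0.50 ± 0.34), of the gamma-tubulin ring, rose in AcB61, and Kifap3 (-0.39 ± 0.23), the adaptor of the ciliary kinesin, fell in AcB55. Between the strains 2 were higher and 1 lower in AcB55, 6.25% against 12.3% of features, and 6 passed in place of 3 without AcB55 replicate 2. They were Stil (0.21 ± 0.17 in AcB55 and -0.23 ± 0.12 in AcB61, adjusted p = 0.00247), needed for centriole duplication, Bbs7 (0.27 ± 0.38 and -0.25 ± 0.12, adjusted p = 0.0135), of the BBSome, and Kifap3 (difference -0.29, adjusted p = 0.0485). The Kifap3 difference was lost after centring each array and without any of 11 single arrays (adjusted p up to 0.172). Odf2l, a gene named for its likeness to Odf2, read 0.096 ± 0.13 in AcB55 and 0.049 ± 0.21 in AcB61, and Nin, of the same centriole appendages, -0.071 ± 0.13 and -0.00025 ± 0.064, and neither passed in any comparison. Of 37 sperm tail and spermatid genes only Tekt2 was measured, at 0.085 ± 0.098 in AcB55 and 0.022 ± 0.084 in AcB61, and it did not pass.

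Around Bche, 8 of 56 listed cholinesterase, cholinergic and esterase genes were measured, and Ache was not among them. In AcB55, 0 rose and 1 fell by limma, and in AcB61, 1 rose and 0 fell, or 12.5% of the list in each against 20.7% and 23.8% of all features, and at an unadjusted p under 0.05 the counts were 1 and 2 in AcB55 and 1 and 1 in AcB61. The AcB55 count became 3 without both arrays marked b and 2 without AcB55 replicate 1, and the AcB61 count 2 without AcB61 replicate 6. These changed counts take rises and falls together, and the direction of the added calls is not given here. The highest AcB55 means of the list were those of Ces1f and Ces1d, 0.14 each, with -0.044 and -0.084 on the arrays marked b. The lowest were those of Nceh1 (-0.26, and -0.16 on the arrays marked b) and Chrna5 (-0.14 and -0.18). Nceh1 (-0.26 ± 0.16), a hydrolase of ester lipids, fell in AcB55 (adjusted p = 0.00379), and Esd (0.22 ± 0.12), esterase D, rose in AcB61 (adjusted p = 0.00536). Both were lower in AcB55 than in AcB61, by -0.26 (adjusted p = 0.0433) and -0.29 (adjusted p = 0.029), opposite to Bche, or 25.0% of the list against 12.3% of all features. Both differences were lost without any one of AcB55 replicates 4, 5 and 6, among other single arrays (adjusted p up to 0.12 for Nceh1 and 0.123 for Esd), and without both arrays marked b.

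**Figure D4:**
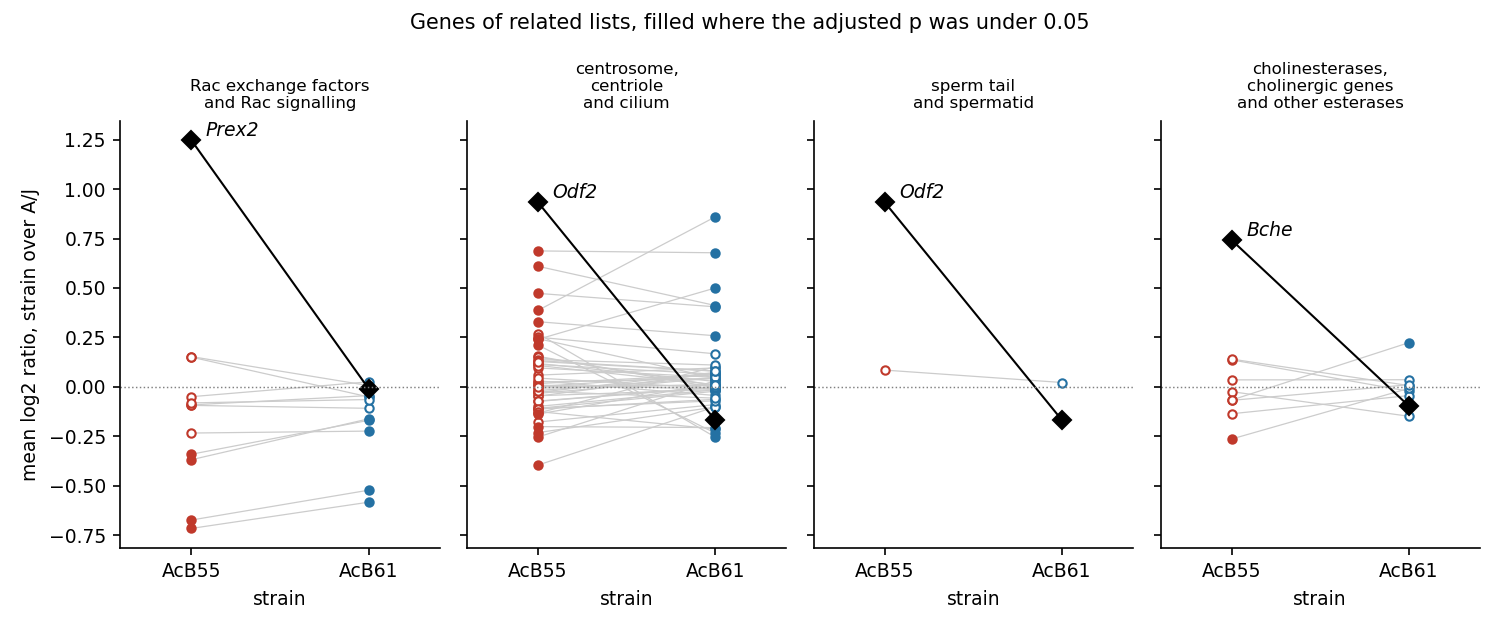
Mean log2 ratio of strain to A/J (vertical axis) in AcB55, left, and AcB61, right, for the measured genes of each list, with filled points for an adjusted p under 0.05 and black diamonds for the member that belongs with the list. Prex2, Odf2 and Bche lie above all points of their lists in AcB55, and at -0.0090, -0.17 and -0.096 in AcB61.

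The genes next to each member on its chromosome were read in the same fit, 10 tested genes on each side, except that only 8 lay before Prex2. Around Prex2 (chromosome 1), 4 of 18 genes were higher and 1 lower in AcB55 than in AcB61, 27.8% against 12.3% of all features, with a median difference of 0.045. Around Odf2 (chromosome 2) 0 of 20 were higher and 1 lower, and around Bche (chromosome 3) 1 of 20 was higher and 0 lower, 5.0% each in limma, and at an unadjusted p under 0.05 the counts were 2 and 4 around Odf2 and 2 and 3 around Bche. Over the 3 genes 7 of the neighbours passed in this comparison, and 2 without both arrays marked b. The nearest Prex2 neighbours were Arfgef1, Cspp1 and Cops5 on the side before it in the reference order and Slco5a1, Ncoa2 and Tram1 after it. Tram1 (0.26 ± 0.16 in AcB55 and -0.014 ± 0.11 in AcB61, adjusted p = 0.0278) was higher in AcB55 and correlated with Prex2 at r = 0.92 over 13 arrays, the highest of the 18. Tram1 also stands among the genes most like Bche, and its difference was lost without AcB55 replicate 3, 4 or 6 (adjusted p = 0.0579 to 0.166 over these and the arrays marked b together). The other called neighbours of Prex2 were Arfgef1 (0.26), an Arf exchange factor, the cytokine Il17f (0.51), the replication helicase subunit Mcm3 (0.41) and the transcription factor Mybl1 (-0.29), given as differences between the strains, and those of Arfgef1, Il17f and Mybl1 were lost without any of several single arrays (adjusted p up to 0.145).

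Next to Odf2 the called neighbour was Trub2, a pseudouridine synthase, which ran opposite to Odf2: -0.61 ± 0.20 in AcB55 and -0.015 ± 0.16 in AcB61 (adjusted p = 0.00127). Trub2 is the third tested gene before Odf2, and the nearer ones, Cercam and Coq4, as well as Sptan1, Set and Zdhhc12 after it, did not pass between the strains. Next to Bche, Smc4 (0.73 ± 0.084 in AcB55 and 0.43 ± 0.22 in AcB61), a condensin subunit, was higher in AcB55 (adjusted p = 0.0441), a call lost without any of 12 single arrays (adjusted p up to 0.114). Its neighbour Trim59 rose in both strains (0.71 ± 0.24 and 0.55 ± 0.14), and Nmd3 and Ppm1l before Bche and Etfdh, Gask1b and Pdgfc after it did not pass in any comparison. Against A/J, where 9.77% of all features rose and 10.9% fell in AcB55, 3 of the 18 neighbours of Prex2 rose and 1 fell in AcB55, among them Tcea1 (0.18) and Rdh10 (-0.18), 1 of 20 of Odf2 rose (Gtf3c4, 0.15) and 4 fell (Trub2, Sptan1, Dolk and Set, -0.61 to -0.23), and 2 of 20 of Bche rose and 4 fell (Ccnl1, Tiparp, Gucy1a1 and Tmem131l, -0.36 to -0.28). In AcB61, where 10.5% of all features rose and 13.3% fell, 3, 1 and 2 neighbours rose and 2, 0 and 1 fell by limma (3, 3 and 2 at an unadjusted p under 0.05), with Eloc (0.20) beside Prex2 and Gucy1a1 (-0.23) beside Bche among them. Among those named with a single value or range, Tcea1, Rdh10, Gtf3c4, Set, Ccnl1, Tiparp, Gucy1a1 and Tmem131l lost at least 1 of these calls against A/J without a single array (adjusted p up to 0.169). Mcm3 had the highest AcB55 mean of the neighbours, below those of Prex2 and Odf2.

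**Figure D5:**
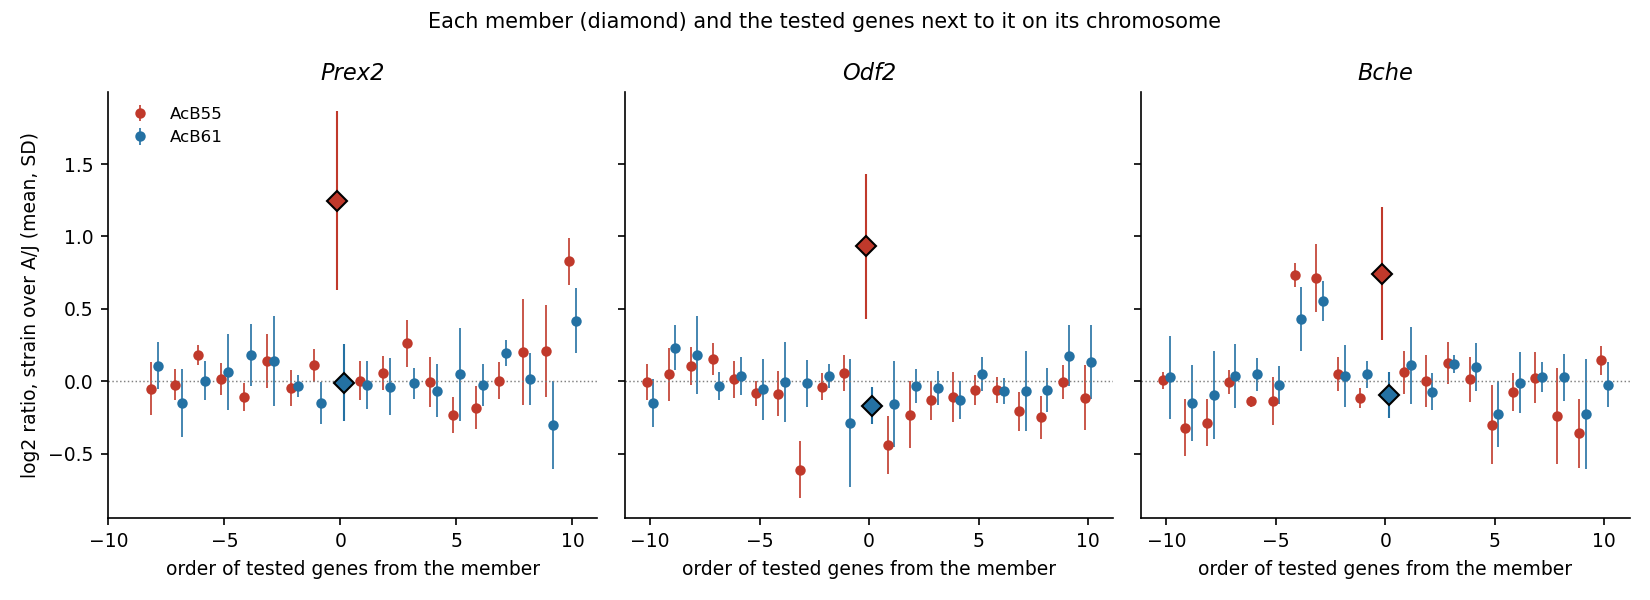
Mean and SD of the log2 ratio of strain to A/J (vertical axis) for Prex2, Odf2 and Bche (diamonds, at 0) and the tested genes before (negative order) and after them on the chromosome (horizontal axis), AcB55 in red left of AcB61 in blue. The AcB55 means of 1.25, 0.93 and 0.74 stand above those of the nearest genes, while Mcm3 beside Prex2 and Smc4 and Trim59 beside Bche reach 0.83, 0.73 and 0.71.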

How the data were processed

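Spleen RNA of AcB55 (6 arrays) and AcB61 (8 arrays) was measured against A/J spleen RNA. Per the labels, images were quantified with QuantArray 3.0 and imported into GeneSpring with spot quality information, and what was done after that is not stated in full. The deposited table holds a log2 ratio for each feature and array, read so from its values, with base 2 assumed. Medians of the arrays lay between -0.021 and 0.0087, so values were used as deposited. Gene names came from the platform annotation, and probes of a single-symbol gene were averaged. Features with values on at least 3 arrays of each strain were tested (13045 features, 6286 of them named genes) in limma 3.58.1 (R 4.3.3), with a mean for each strain, eBayes and the Benjamini-Hochberg adjustment over all features, two-sided at 0.05. Every array counted as a replicate. Of the named genes, 6271 had a position in the RefSeq gene table (GRCm38.p6), used for their order only. The fit was tested on simulated data. The members, gene lists and rules were chosen with earlier results of these data known. 1 of the related gene lists is not reported here, though its genes are within the counts over all related lists. Named list genes are up to 4 called genes with the largest change in each comparison, and a few fixed ones. Other calculations used Python 3.11.15, numpy 2.4.6, pandas 2.3.3, scipy 1.17.1 and matplotlib 3.10.9. Alternatives were other centring, quantile normalization, a stricter filter, robust moderation, array weights and leaving out arrays.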

Additional observations from a re-analysis of the deposited data

Results flagged for a closer look

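Odf2 is listed because all 6 AcB55 arrays were above 0 and all 8 AcB61 arrays below it, with a difference of 1.10 that was not tested, since the gene was chosen for it. Among the related and neighbouring genes, limma found a difference AcB55 minus AcB61 for Stil (0.44), Bbs7 (0.52), Il17f (0.51), Mcm3 (0.41), Smc4 (0.30), Tram1 (0.28) and Arfgef1 (0.26), which were higher in AcB55, and for Trub2 (-0.59), Kifap3 (-0.29), Esd (-0.29), Mybl1 (-0.29) and Nceh1 (-0.26), which were lower. Of 132 sets of arrays checked for a single distant value, 9 had one, and chance gives about 1 in 20. In AcB55 they were Pak2 on replicate 3 (0.038, others -0.47 to -0.42), Iqgap1 on replicate 3 (-0.069, others -0.29 to -0.22), Stil on replicate 6 (0.53, others 0.072 to 0.22), Coq4 on replicate 1 (0.15, others -0.10 to -0.026) and Etfdh on replicate 2 (0.35, others -0.055 to 0.078). In AcB61 they were Odf2l on replicate 8 (0.53, others -0.10 to 0.11), Tsc1 on replicate 8 (0.60, others 0.091 to 0.25), Wnk2 on replicate 5 (0.44, others -0.22 to 0.0097) and Nin on replicate 7 (-0.14, others -0.019 to 0.073). No array of Prex2, Odf2 or Bche met this criterion. It looks for a single distant value and can miss 2 high arrays together, as the arrays marked b are for these genes.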

How the results depend on the processing

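The means of Prex2, Odf2 and Bche in AcB55 and AcB61 and their differences kept their sign (Prex2 in AcB61, near 0, aside) and moved by less than 1 SD between arrays with centring, quantile normalization, the median over arrays and leaving out each array. Without both arrays marked b, the differences were smaller, 0.82 for Prex2 against 1.26 with them, 0.80 against 1.10 for Odf2 and 0.57 against 0.84 for Bche. The AcB55 SD is itself widened by those arrays, 0.62 with and 0.22 without them for Prex2, so it is no yardstick for that setting. Leaving out 1 array gave differences of 1.09 to 1.42 for Prex2, 0.94 to 1.20 for Odf2 and 0.69 to 0.91 for Bche. Each member has 1 probe, so no comparison of probes could be made. Of all features, 1601 were called in AcB55 minus AcB61, against 2826 with array weights, 705 without both arrays marked b and 854 to 1694 leaving out 1 array, with 924 without AcB55 replicate 5 and 854 without replicate 6. The counts of calls against A/J stayed within 1.5 times. Over all related lists 5 genes were called between the strains, 3 without both arrays marked b and 2 to 8 leaving out 1 array (8 without AcB55 replicate 2, 2 without 4 or 6, 3 without 5 or without AcB61 replicate 1, 6 or 8). For the neighbouring genes, in settings added after the values were seen, 15 were called in AcB55 against A/J, 9 without both arrays marked b and 7 to 16 leaving out 1 array (9 without AcB55 replicate 4 or 5 and 7 without 6), and 7 between the strains, 2 without both arrays marked b and 2 to 7 leaving out 1 array (2 without AcB55 replicate 3 or 6, 3 without 4, 4 without 5, 4 without AcB61 replicate 1 and 3 without 2 or 4). Of the 5 genes most like each member, 0 for Prex2, 1 for Odf2 and 2 for Bche stayed after strain means were subtracted, 1 for Odf2 and 2 for Bche with Spearman correlation, and 2 for Prex2, 2 for Odf2 and 1 for Bche without both arrays marked b, a setting added after the values were seen. The cause of these shifts was not tested. Of 66 calls of named list and neighbouring genes, 40 were kept under centring, without both arrays marked b and leaving out each array, and 26 were lost under at least 1 of them. No paired analysis was possible because the labels give the arrays no replicate numbers. Spot signals were not used here, so how far weak spots limit these ratios is unknown.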

Other observations

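Several other named genes, chosen after their values were seen, were, like Prex2, Odf2 and Bche, highest within AcB55 on the arrays marked b. Ap3d1, a subunit of the AP-3 adaptor of lysosome-related organelles, averaged 1.47 on the arrays marked b, 0.23 on the other AcB55 arrays and -0.40 in AcB61. Mtfr1l, of a family of mitochondrial fission regulators, averaged 1.33, 0.21 and -0.11 on the same sets of arrays, and Ttc12 0.98, 0.10 and -0.12. Together with Irak1 and Wnk2 these and the 3 members were the 8 named genes with the largest excess on the arrays marked b, from 1.24 for Ap3d1 to 0.75 for Wnk2. Since those arrays raise the AcB55 mean, the strain differences were read without them: AcB55 minus AcB61 was then 0.22 for Ttc12, 0.31 for Mtfr1l, 0.53 for Wnk2, 0.63 for Ap3d1 and 0.69 for Irak1, against 0.57 to 0.82 for the 3 members. The next 4 genes by this excess, Zdhhc20, Igfbp3, Itpr2 and Nuak1, had excesses of 0.69 to 0.58. Without the arrays marked b their strain differences were -0.38, -0.13, -0.64 and -0.78, and their means on the arrays marked b lay nearer to 0 than on the other AcB55 arrays. These values are a description of arrays whose mark the labels do not explain.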
